A study of Rattus norvegicus with 24 samples.

Results

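The comparison is of forebrain gene expression in male F344 rats given D-serine at 200 mg/kg with that in rats given vehicle (0 mg/kg). It was made up of 8 of the 24 arrays of the study, 4 at 200 mg/kg and 4 of vehicle, and its members were taken from the array titles. All rats were aged 11 to 12 weeks, received a single dose and were killed after 96 h. About 30 mg of forebrain per rat gave the total RNA for 1 Affymetrix rat expression array, and how the piece was dissected is not given in the sources used here. By the labels each array came from its own animal, so replicates are biological and unpaired. The remaining 16 arrays held the groups given 5, 20, 50 and 500 mg/kg, and entered the fit through a shared estimate of the spread. Animal numbers in the labels are ordered by group, so any order of handling that followed them cannot be told apart from dose.

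D-serine is the mirror-image form of the amino acid serine. In the forebrain it is made from L-serine by serine racemase (Srr) and binds, with glutamate, to the NMDA type of glutamate receptor, an ion channel that lets calcium into neurons and is needed for many forms of synaptic plasticity. It is broken down by D-amino acid oxidase (Dao) and carried across membranes by neutral amino acid transporters such as Slc1a4 and Slc7a10. The study asked which transcripts differ from vehicle at each dose.

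Levels are given as log2(intensity + 16) of quantile normalized signals, differences are 200 mg/kg minus vehicle on that scale, and ± after a difference is the standard error of the fit. Such differences understate the change of dim probe sets, the groups of oligonucleotides that read 1 transcript. Deposited median intensities were 58.4 to 68.4 on the 200 mg/kg arrays and 56.0 to 82.9 on the vehicle arrays. The median correlation of an array with the others was 0.968 to 0.971 at 200 mg/kg and 0.957 to 0.967 in vehicle. As a sign of RNA quality, 3' was set against 5' signal of the control probe sets (log2 ratio). The beta-actin ratio was 2.46 ± 0.15 at 200 mg/kg and 2.56 ± 0.19 in vehicle (SD, n = 4 each; exact two-sided permutation p = 0.40, adjusted p = 0.543 over 3 controls). Closeness in this ratio was part of how the comparison was chosen, so this p is no independent check of RNA quality. The Gapdh ratio was 0.60 ± 0.21 at 200 mg/kg and 0.83 ± 0.06 in vehicle (SD, n = 4 each; exact permutation p = 0.0857, adjusted p = 0.257), and 4 against 4 arrays cannot give a p below 0.0286. Among the vehicle arrays, replicate 2 stood apart in markers of thalamus and in the hypothalamic gene Pmch, as described with those genes.

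No gene passed the test at 200 mg/kg. The limma test called 0 of 18625 probe sets (0.0%) and 0 of 10205 genes (0.0%), with a smallest adjusted p of 0.665. Before adjustment, 987 probe sets (5.3%) had a p under 0.05, against 931 given by chance, and at 200 mg/kg 532 of them were higher (2.86%) and 455 lower (2.44%). Of the genes, 449 (4.4%) were under this limit, 216 higher (2.12%) and 233 lower (2.28%). The count of probe sets under 0.05 moved with the setting. Without 500 mg/kg replicate 4, an array that stood apart, it was 1349 (limma smallest adjusted p = 0.286). It was 1134 with only the 8 arrays of both groups, 710 with the Gapdh ratio as a covariate and 402 on values as deposited. In 326 genes (3.19%) the 4 arrays at 200 mg/kg did not overlap the 4 vehicle arrays, with 157 higher (1.54%) and 169 lower (1.66%). The median difference over all genes was 0.00, the middle of the distribution ran from -0.08 at the lower quartile to 0.09 at the upper, and 5246 genes (51.4%) read above vehicle. The precision was enough to bound most differences: the median standard error was 0.14, and in 9953 genes (97.5%) the 95% interval lay within 1 log2 unit of no difference. On this scale, which understates changes of dim probe sets, a 1.5-fold difference lay outside the interval on both sides in 83.9% of genes. The intervals were not adjusted for the number of genes. In the same fit and against the same vehicle arrays, 5 mg/kg had 1028 probe sets that passed (5.52%) and 20 mg/kg had 1580 (8.48%). The 50 mg/kg group had 161 (0.864%), while the 500 mg/kg group had 1 (0.00537%). RNA ratios moved with these counts. The beta-actin ratio was 1.46 to 1.95 over the 12 arrays at 5, 20 and 50 mg/kg, against 2.33 to 2.76 in vehicle, and the Gapdh ratio was 0.098 to 0.57 against 0.76 to 0.89, without overlap. At 200 mg/kg the beta-actin ratio was 2.29 to 2.65. The Gapdh ratio at 200 mg/kg was 0.80, 0.77, 0.42 and 0.41 in replicates 1 to 4. Replicates 3 and 4 thus lay below every vehicle array in that ratio, within the range of the lower doses. The part of RNA quality in the counts at the 3 lower doses was not tested here.

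Set directly against its neighbouring doses, 200 mg/kg had no called probe set. Against 500 mg/kg, limma called 0 probe sets (0.0%), with 969 (5.2%) at an unadjusted p under 0.05 and a smallest adjusted p of 0.808. Replicate 4 at 500 mg/kg stood apart, its correlation with the others having a median of 0.855. Without it the count under 0.05 was 506, and without replicate 1, 2 or 3 of that group it was 1798, 1625 and 1681. None of these settings called a probe set in limma, and the smallest adjusted p among them was 0.0528, without replicate 3. Against 50 mg/kg, it called 0 probe sets (0.0%), with 1320 (7.09%) at an unadjusted p under 0.05 and a smallest adjusted p of 0.0639. The count of called probe sets against 50 mg/kg moved with the processing, up to 182 with array weights. The beta-actin ratios at 200 and 50 mg/kg did not overlap (2.29 to 2.65 against 1.77 to 1.95), and with that ratio as a covariate the count under 0.05 was 690.

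The gene furthest from vehicle in size came from red blood cells. Hbb, a beta chain of haemoglobin, read 9.61, 9.85, 9.94 and 12.34 at 200 mg/kg, against 11.96, 11.76, 11.80 and 11.42 in vehicle. The first 3 rats at 200 mg/kg lay below every vehicle rat and replicate 4 lay above all of them. The difference was -1.30 ± 0.41 (95% interval -2.14 to -0.46; limma adjusted p = 0.756), 2.47-fold lower on this scale. Alas2, the first enzyme of haem synthesis in red cells, split in the same way. It read 5.20, 4.98, 5.32 and 7.23 at 200 mg/kg, against 6.80, 6.92, 6.82 and 6.47 in vehicle, a difference of -1.07 ± 0.36 (limma adjusted p = 0.811). Slc4a1, the anion exchanger of the red cell membrane, overlapped between groups at 5.97, 5.27, 6.09 and 6.25 at 200 mg/kg against 6.07, 5.90, 6.48 and 6.45 in vehicle (-0.33 ± 0.37, limma adjusted p = 0.998). These were the 3 measured members of the 6 listed red blood cell genes, and their mean level relative to the vehicle mean was -1.54 to -1.12 in replicates 1 to 3, 0.37 in replicate 4, and -0.13 to 0.13 in vehicle.

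The call on these genes turned on 1 animal. With replicate 4 of the 200 mg/kg group left out, which compares 3 rats with 4, limma called 7 probe sets, all lower. Hbb was then at -1.94 ± 0.26 (limma adjusted p = 0.00167) and Alas2 at -1.59 ± 0.26 (limma adjusted p = 0.0149). The other 5 probe sets each carry 2 globin symbols and so name no single gene. Their differences ran from -2.07 to -1.57 (limma adjusted p from 0.000715 to 0.00605). Leaving out any other array of both groups called 0 probe sets, and kept Hbb between -1.41 and -1.03. In whole tissue, fewer red cells and less RNA per cell cannot be told apart, and the amount of blood left in the piece was not measured.

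**Figure D1:**
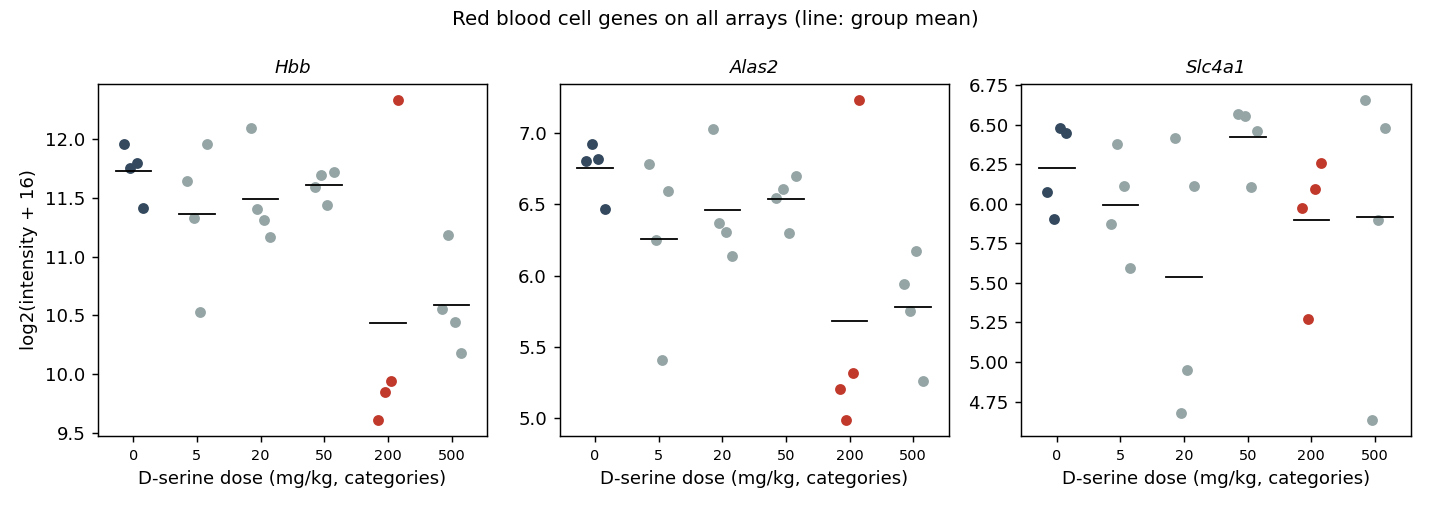
Level of Hbb, Alas2 and Slc4a1, in log2(intensity + 16), on each array at 0 (vehicle), 5, 20, 50, 200 and 500 mg/kg D-serine, with doses as categories. Each point is 1 rat and each line a group mean, with 200 mg/kg in red and vehicle in dark blue. For Hbb, 3 of the 4 rats at 200 mg/kg lie at 9.61 to 9.94 and the other one at 12.34, while vehicle lies at 11.42 to 11.96 and 500 mg/kg at 10.18 to 11.19.

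Across the dose series, Hbb was lower than in every vehicle rat in all 4 rats at 500 mg/kg. It read 11.96, 11.76, 11.80 and 11.42 in vehicle, 10.53 to 11.96 at 5 mg/kg, 11.17 to 12.09 at 20 mg/kg and 11.44 to 11.72 at 50 mg/kg. At 500 mg/kg it read 10.55, 11.19, 10.44 and 10.18, and its difference from vehicle was -1.14 ± 0.41 (limma adjusted p = 0.666). The difference between 200 and 500 mg/kg was -0.16 ± 0.41 (limma adjusted p = 0.945). For Alas2, the 500 mg/kg group read 5.26 to 6.17, also below all vehicle rats, and 200 minus 500 mg/kg was -0.10 ± 0.36 (limma adjusted p = 0.964).

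The 10 genes with the smallest p against vehicle are described next, and none passed. All 10 had groups that did not overlap, which holds for 3.19% of genes, and a small p favours such genes. Xiap, an inhibitor of the caspases that carry out cell death, read 8.17, 8.36, 8.30 and 8.28 at 200 mg/kg, against 8.77, 8.74, 8.53 and 8.68 in vehicle. Its difference of -0.40 ± 0.08 had a limma adjusted p of 0.665, and a dimmer probe set of Xiap read 0.18 in the other direction. Dnm1l, the dynamin-like GTPase that divides mitochondria, read 8.77, 8.88, 8.99 and 9.03 at 200 mg/kg, against 8.49, 8.48, 8.59 and 8.68 in vehicle. Its difference was 0.36 ± 0.09 (limma adjusted p = 0.679), and its other probe set gave 0.43. Fscn1, an actin-bundling protein, read 6.68, 6.86, 6.75 and 6.41 at 200 mg/kg, against 5.78, 5.75, 6.27 and 5.97 in vehicle. Its difference of 0.73 ± 0.19 (limma adjusted p = 0.755) was the greatest in size of the 10, and its other probe sets gave 0.14 and 0.42.

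Of the other 7, Ppm1a, a serine/threonine phosphatase, and the histone H2B gene Hist3h2ba read higher at 200 mg/kg. Ppm1a was at 6.91, 7.25, 7.41 and 7.37 at 200 mg/kg, against 6.33, 6.76, 6.86 and 6.81 in vehicle (0.55 ± 0.15, limma adjusted p = 0.755). Hist3h2ba was at 8.48, 8.66, 8.83 and 8.58 at 200 mg/kg, against 8.02, 8.24, 8.38 and 8.17 in vehicle (0.43 ± 0.11, limma adjusted p = 0.679). The other 5 read lower, by between 0.35 and 0.47. Olfml2a, an olfactomedin-like extracellular protein, was at 6.35, 6.29, 6.18 and 6.36 at 200 mg/kg, against 6.90, 6.72, 6.63 and 6.80 in vehicle (-0.47 ± 0.11, limma adjusted p = 0.667). LOC100911253, which has no gene name in the table used, was at -0.44 ± 0.10 (limma adjusted p = 0.667). Setd5, a chromatin regulator, was at -0.41 ± 0.11, while its 2 other probe sets read 0.19 and 0.13. Mpst, a sulphurtransferase that can produce hydrogen sulphide, was at -0.39 ± 0.10, and Mylk, the kinase of smooth muscle myosin light chain, was at -0.35 ± 0.09 (limma adjusted p = 0.755 for each of these 3).

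**Figure D2:**
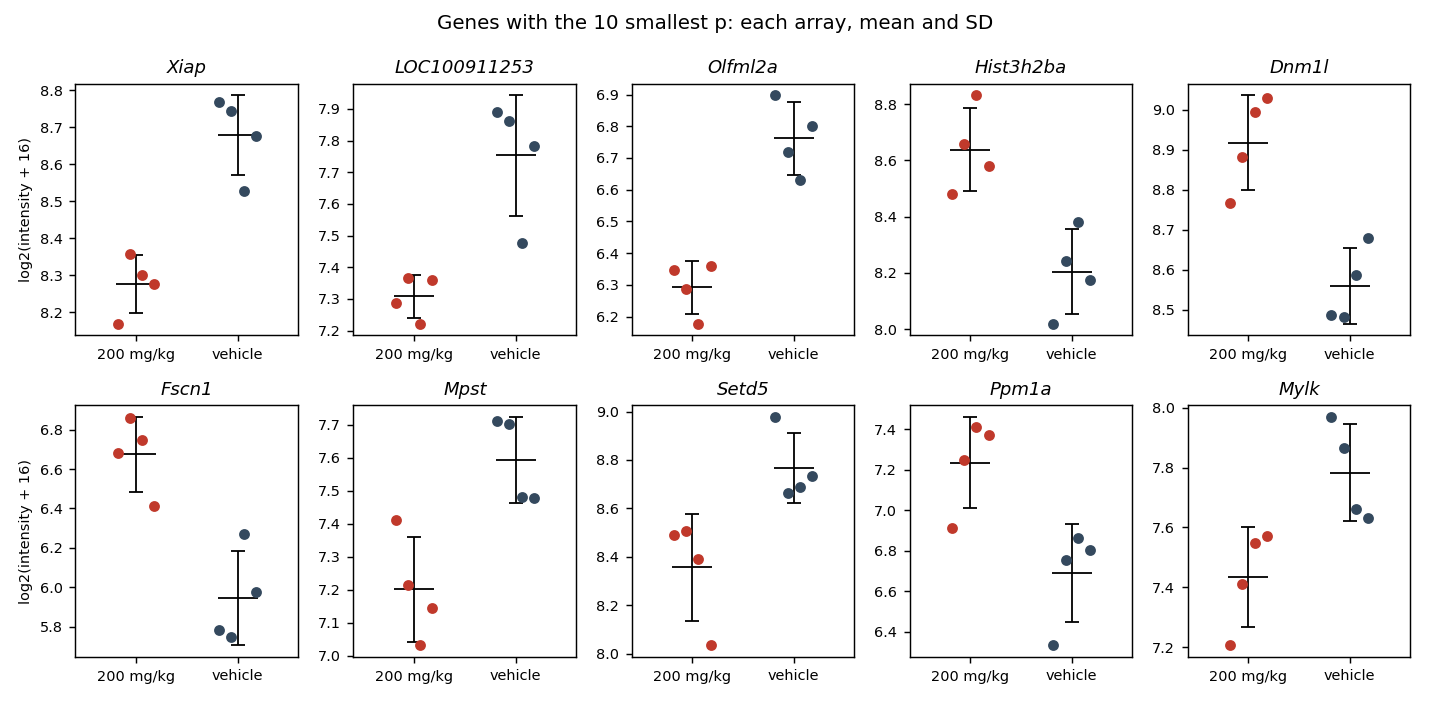
Level in log2(intensity + 16) of the 10 genes with the smallest p, with the 4 rats at 200 mg/kg (red) left of the 4 vehicle rats (dark blue) and the mean and SD in black. The groups do not overlap in any panel, and the vertical axes differ between panels; Xiap, for example, lies at 8.17 to 8.36 at 200 mg/kg and at 8.53 to 8.77 in vehicle.

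Several of these genes passed at other doses, measured against the same 4 vehicle arrays, so that a vehicle value off its usual level enters every difference. The arrays at 5, 20 and 50 mg/kg also lay below all vehicle arrays in beta-actin and Gapdh ratio, and the part of RNA quality in the calls at those doses was not tested. Dnm1l was higher than vehicle by 0.65 ± 0.09 at 5 mg/kg (limma adjusted p = 0.000195), by 0.70 ± 0.09 at 20 mg/kg (limma adjusted p = 4.54e-05) and by 0.53 ± 0.09 at 50 mg/kg (limma adjusted p = 0.00874). At 500 mg/kg its difference was 0.25 ± 0.09 (limma adjusted p = 0.656), beside 0.36 at 200 mg/kg. Fscn1 was higher by 1.03, 1.14 and 0.85 at 5, 20 and 50 mg/kg (limma adjusted p = 0.00209, 0.000591 and 0.0321), beside 0.73 at 200 mg/kg and 0.42 at 500 mg/kg. Ppm1a was higher by 0.70, 0.68 and 0.65 at 5, 20 and 50 mg/kg (limma adjusted p = 0.00575, 0.00485 and 0.0337), beside 0.55 at 200 mg/kg and 0.29 at 500 mg/kg. Xiap fell by 0.46 at 5 mg/kg (limma adjusted p = 0.00199) and by 0.38 at 20 mg/kg (limma adjusted p = 0.00628). The 50 mg/kg group was at -0.26 (limma adjusted p = 0.139), beside -0.40 at 200 mg/kg and -0.36 at 500 mg/kg. Setd5 fell by 0.51 and 0.69 at 5 and 20 mg/kg (limma adjusted p = 0.00635 and 0.000408). Its difference in the 50 mg/kg group was -0.43 (limma adjusted p = 0.0613), beside -0.41 at 200 mg/kg and -0.39 at 500 mg/kg. Of these genes, Dnm1l, Fscn1, Ppm1a, Xiap and Setd5 did not pass in the direct test of 200 against 50 mg/kg, with differences of -0.17 ± 0.09 for Dnm1l, -0.12 ± 0.19 for Fscn1, -0.10 ± 0.15 for Ppm1a, -0.14 ± 0.08 for Xiap and 0.02 ± 0.11 for Setd5 (limma adjusted p from 0.725 to 0.992).

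Genes that handle D-serine were close to vehicle. No probe set used here was named for Srr, and Dao and the transporter Slc1a5 were among the dim probe sets left out. Slc1a4, which carries serine and alanine, read 7.03, 6.88, 7.07 and 7.37 at 200 mg/kg, against 6.70, 7.31, 7.39 and 7.23 in vehicle (-0.07 ± 0.22, 95% interval -0.52 to 0.38). Slc7a10, which exchanges small neutral amino acids including D-serine, read 7.14, 7.19, 7.37 and 7.32 at 200 mg/kg, against 7.36, 7.44, 7.29 and 7.09 in vehicle (-0.04 ± 0.15, 95% interval -0.34 to 0.26). The groups overlapped for both transporters (limma adjusted p = 0.998 each). Psph, which carries out the last step of L-serine synthesis, read 7.41, 7.20, 7.21 and 7.10 at 200 mg/kg, against 6.95, 6.91, 7.06 and 7.12 in vehicle (0.22 ± 0.10, limma adjusted p = 0.935). Of the 20 listed genes of serine and glycine synthesis, breakdown and transport, 14 were measured, 0 passed and 4 read above vehicle, with a median of -0.04 beside 0.00 over all genes.

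The NMDA receptor subunits likewise did not pass. Grin1, the subunit present in every NMDA receptor, read 8.78, 9.00, 8.95 and 8.74 at 200 mg/kg, against 8.72, 9.03, 9.31 and 8.78 in vehicle. Its difference was -0.09 ± 0.11, and its 95% interval of -0.33 to 0.14 was the narrowest of the 4 subunits given here. Grin2a, which prevails in the adult forebrain, was at -0.17 ± 0.20, and Grin2b, which prevails early in development, at 0.13 ± 0.26, with overlapping groups (limma adjusted p = 0.998 for each). Grin2c, a subunit best known from cerebellum and glia, read 8.29, 8.18, 8.25 and 8.41 at 200 mg/kg, against 8.47, 8.68, 8.57 and 8.59 in vehicle, without overlap. Its difference was -0.29 ± 0.25 (limma adjusted p = 0.998), and the adjusted p was 0.548 without 500 mg/kg replicate 4, an array that stood apart and widened the shared spread. Over the 5 measured subunits of 7 listed, 2 read above vehicle and the median was -0.09, with a range of -0.17 to -0.011 when arrays of both groups were left out in turn.

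**Figure D3:**
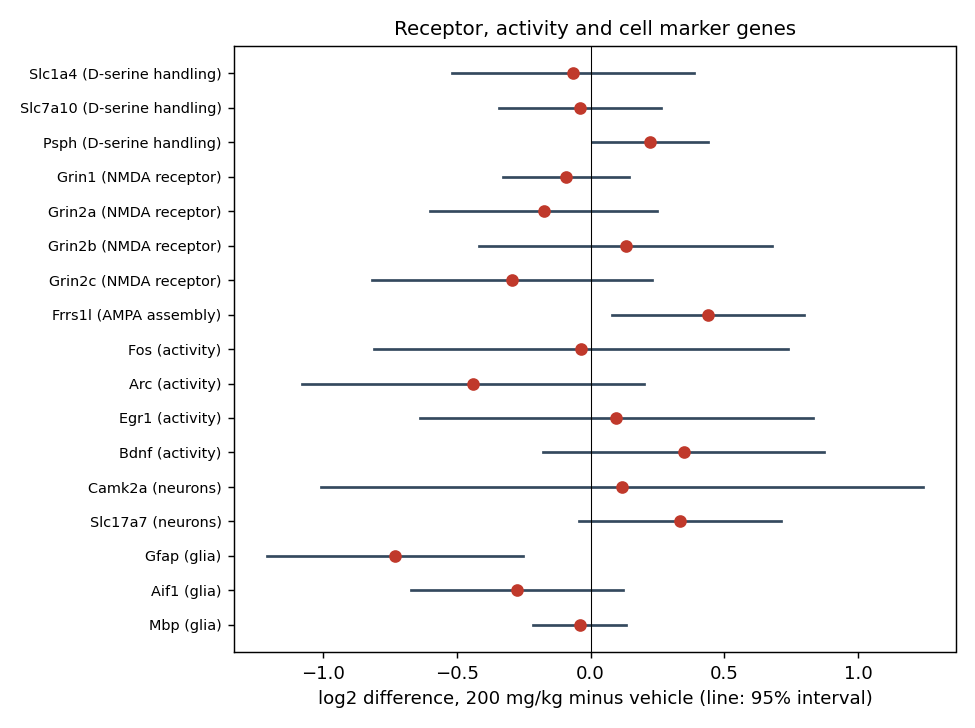
Difference of 200 mg/kg minus vehicle in log2(intensity + 16) for genes of D-serine handling, the NMDA receptor, AMPA receptor assembly, neuronal activity, neurons and glia; points are differences and lines 95% intervals before any adjustment. The interval of Gfap lies below 0 at -1.21 to -0.25 and that of Frrs1l above it at 0.08 to 0.80, and neither passed after adjustment.

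Other glutamate and GABA receptor genes showed no called member. AMPA receptor subunits and assembly genes had 11 measured members, 6 above vehicle and a median of 0.00. Among them Frrs1l, an assembly factor of the AMPA receptor, did not overlap between groups at 6.47, 6.81, 6.54 and 6.87 at 200 mg/kg against 6.28, 6.13, 6.23 and 6.30 in vehicle (0.44 ± 0.17, limma adjusted p = 0.893). The median was 0.13 for 6 kainate receptor subunits, 0.13 for 5 metabotropic receptors and 0.03 for 8 GABA-A receptor subunits. The first of these medians was 0.035 without vehicle replicate 2 and 0.25 without vehicle replicate 3, and that of the metabotropic receptors was 0.028 without vehicle replicate 4 and 0.28 without vehicle replicate 3. Of the 17 measured genes of synaptic vesicle release and recycling, 13 read above vehicle, with a median of 0.09 (0.055 without vehicle replicate 4). Dnm1, the dynamin of synaptic vesicle recycling, was at 0.25 ± 0.09 (limma adjusted p = 0.866), Svop at 0.40 ± 0.16 and the endophilin Sh3gl2 at 0.44 ± 0.20, while the release regulator Cplx2 was at -0.25 ± 0.11 (limma adjusted p from 0.893 to 0.908). The auxiliary calcium channel subunit Cacnb4 did not overlap between groups and was at 0.45 ± 0.19 (limma adjusted p = 0.893).

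Genes that neurons switch on with activity overlapped between groups, though Arc did so only through vehicle replicate 4. Fos read 7.43, 7.03, 7.79 and 6.68 at 200 mg/kg, against 7.42, 7.41, 7.82 and 6.42 in vehicle (-0.04 ± 0.37). Arc, which acts at active synapses, read 8.26, 8.04, 8.12 and 8.19 at 200 mg/kg, against 8.82, 8.40, 9.03 and 8.12 in vehicle (-0.44 ± 0.31). Egr1 was at 0.10 ± 0.35, and the neurotrophin Bdnf at 0.35 ± 0.25 (limma adjusted p from 0.989 to 0.998 for these 4). Their 95% intervals, such as -0.81 to 0.74 for Fos, leave room for differences well over 1.5-fold at this time after dosing. The intervals rest on the spread shared by all groups, including 500 mg/kg with its replicate 4. At 500 mg/kg the SD was 1.01 for Fos, 1.19 for Egr1 and 0.91 for Arc, against 0.60, 0.43 and 0.41 in vehicle. For Bdnf it was 0.19 against 0.42. Of the 14 measured immediate-early genes, 8 read above vehicle, with a median of 0.04.

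Markers of astrocyte reaction read lower at 200 mg/kg. Gfap, the intermediate filament of astrocytes, read 9.86, 9.83, 9.52 and 10.31 at 200 mg/kg, against 10.27, 11.07, 10.42 and 10.68 in vehicle. Replicate 4 at 200 mg/kg lay just above the lowest vehicle rat, and the difference was -0.73 ± 0.23 (95% interval -1.21 to -0.25; limma adjusted p = 0.776). All 5 measured reactive astrocyte genes, of 11 listed, read below vehicle, with a median of -0.33 and 0 called. Their mean level relative to vehicle was -0.43 to -0.21 at 200 mg/kg and -0.14 to 0.16 in vehicle. Vim, another filament protein of this list, was at -0.37 ± 0.19 (limma adjusted p = 0.954). Of 11 measured resting astrocyte markers, 3 read above vehicle, with a median of -0.02 and a highest difference of 0.24. Aqp4, the lowest, was at -0.41 ± 0.20 (limma adjusted p = 0.941), with its other probe sets at -0.63 and -0.14. The microglial gene Aif1 was at -0.27 ± 0.19 (limma adjusted p = 0.989), and 11 microglia and complement genes had a median of -0.07.

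Collagen, meningeal and endothelial genes also read lower in most members, with none called, while smooth muscle and pericyte markers did not. Col3a1, a fibrillar collagen, read 6.90, 6.88, 7.34 and 6.92 at 200 mg/kg, against 8.39, 7.65, 7.63 and 7.15 in vehicle (-0.70 ± 0.25, limma adjusted p = 0.863). The highest rat at 200 mg/kg was above the lowest vehicle rat, and the difference was -0.47 without vehicle replicate 1. The mean of Col3a1 was below the 7.71 of vehicle at every dose. It was 7.23, 7.35, 6.82, 7.01 and 6.75 at 5, 20, 50, 200 and 500 mg/kg. Of 13 measured collagens, 2 read above vehicle (median -0.17), and of 10 meningeal fibroblast markers, 0 did (median -0.20). The collagen median was -0.086 without vehicle replicate 1 and the meningeal median -0.35 without vehicle replicate 4. By array, the collagen level was -0.21 to -0.13 at 200 mg/kg and -0.22 to 0.23 in vehicle, and the meningeal level was -0.46 to 0.09 at 200 mg/kg and -0.51 to 0.26 in vehicle, so both overlapped. Of 10 endothelial markers, 2 read above vehicle (median -0.16, and -0.074 without vehicle replicate 1). Among those below were the transporter Slco1a4 at -0.29 ± 0.13, whose groups did not overlap, and the adhesion molecule Esam at -0.29 ± 0.13 (limma adjusted p = 0.893 each). Of 10 smooth muscle and pericyte markers, 5 read above vehicle (median -0.0013). The member with the lowest difference, Myl9, a myosin light chain of smooth muscle, read 6.80, 6.94, 6.91 and 6.72 at 200 mg/kg, against 7.84, 7.18, 7.36 and 6.96 in vehicle (-0.49 ± 0.16, limma adjusted p = 0.811). Vehicle replicate 4 had the lowest collagen and meningeal levels of all 8 rats, at -0.22 and -0.51, while its red blood cell level was -0.13. The part of vessel, meninges and blood content in these values was not tested.

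**Figure D4:**
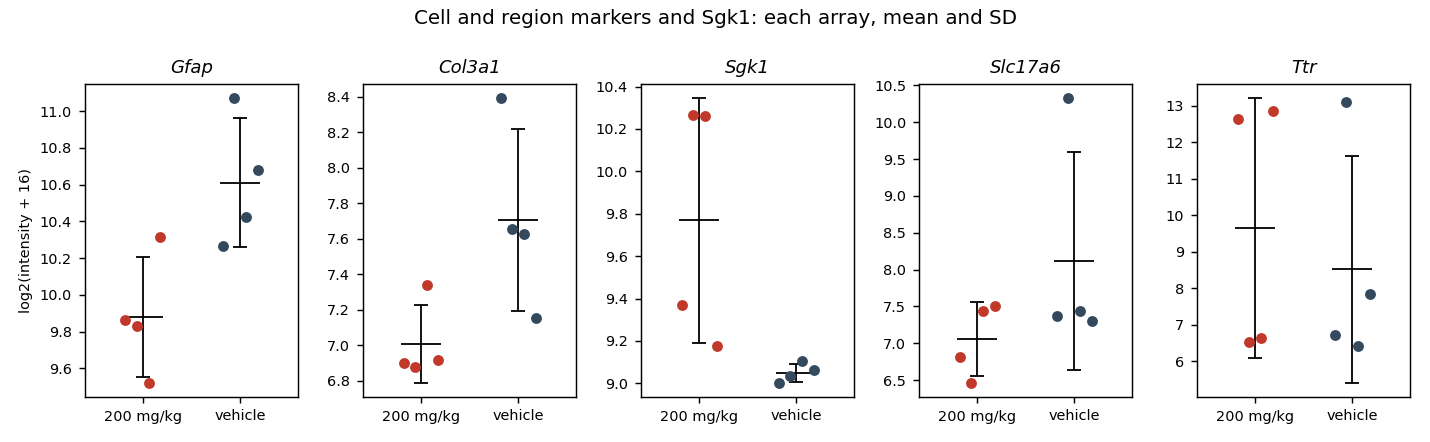
Level in log2(intensity + 16) of Gfap, Col3a1, Sgk1, Slc17a6 and Ttr on each array, with the 4 rats at 200 mg/kg (red) left of the 4 vehicle rats (dark blue) and the mean and SD in black. Sgk1 is higher in all 4 rats at 200 mg/kg than in any vehicle rat, and the SD of Slc17a6 in vehicle rests on 1 rat at 10.33.

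Region markers varied widely between rats of the same group. Excitatory neurons of cortex and hippocampus were represented by 14 genes, of which 12 read above vehicle, with a median of 0.14 that became 0.038 without vehicle replicate 2. Slc17a7, their vesicular glutamate transporter, was at 0.33 ± 0.18 (limma adjusted p = 0.975), while Rorb, a transcription factor of cortical layer neurons, read 6.90, 6.62, 6.31 and 6.60 at 200 mg/kg, against 7.41, 7.43, 6.96 and 7.19 in vehicle (-0.64 ± 0.20, limma adjusted p = 0.755). All 11 interneuron markers read above vehicle, with a median of 0.11 (0.057 without vehicle replicate 2 and 0.22 without vehicle replicate 4), and by array their mean level ran from 0.05 to 0.29 at 200 mg/kg and from -0.17 to 0.20 in vehicle. All 13 striatal markers read below vehicle (median -0.21), and the median was 0.07 without vehicle replicate 4. That rat's striatal level was 0.99 above the vehicle mean, while the other vehicle rats lay at -0.39 to -0.29. Pde10a, a striatal phosphodiesterase, was at -0.55 ± 0.46 (limma adjusted p = 0.998).

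The levels of thalamic markers and of Pmch turned on vehicle replicate 2. Slc17a6, the vesicular glutamate transporter of thalamus and other deep nuclei, read 6.81, 6.47, 7.44 and 7.51 at 200 mg/kg, against 7.38, 10.33, 7.44 and 7.30 in vehicle (-1.06 ± 0.61). It was at -0.32 without that rat. Pmch, a hypothalamic neuropeptide gene, read 5.97 to 6.34 at 200 mg/kg, against 6.50, 9.74, 6.77 and 6.15 in vehicle (-1.15 ± 0.45, limma adjusted p = 0.893), and was at -0.34 without that rat. Of the 3 measured hypothalamic markers of 12 listed, 2 read above vehicle, with a median of 0.11 that became -0.069 without vehicle replicate 2. All 8 thalamic markers read below vehicle, with a median of -0.40 that became -0.04 without vehicle replicate 2. Lef1 of this list was at -0.54 ± 0.23 (limma adjusted p = 0.893).

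Choroid plexus and myelin content also varied by rat. Ttr, the transport protein that choroid plexus secretes, read 12.63, 6.51, 6.62 and 12.84 at 200 mg/kg, against 6.71, 13.09, 6.42 and 7.84 in vehicle. It was high in 2 rats at 200 mg/kg and in 1 vehicle rat, so its difference of 1.13 ± 1.68 was no larger than its error (limma adjusted p = 0.998). The 12 myelin markers had a median of -0.05, with 2 above vehicle, and Mbp, a main protein of myelin, was at -0.04 ± 0.08 (95% interval -0.21 to 0.13). The myelin level of 1 rat at 200 mg/kg, replicate 3, was -0.79, against 0.13 to 0.21 in the other rats at that dose and -0.64 to 0.56 in vehicle. Camk2a, a kinase that marks forebrain neurons, read 11.87, 12.05, 11.86 and 11.99 at 200 mg/kg, against 12.05, 11.71, 11.81 and 11.73 in vehicle, far above the filter limit of 5.98 on all 8 arrays.

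**Figure D5:**
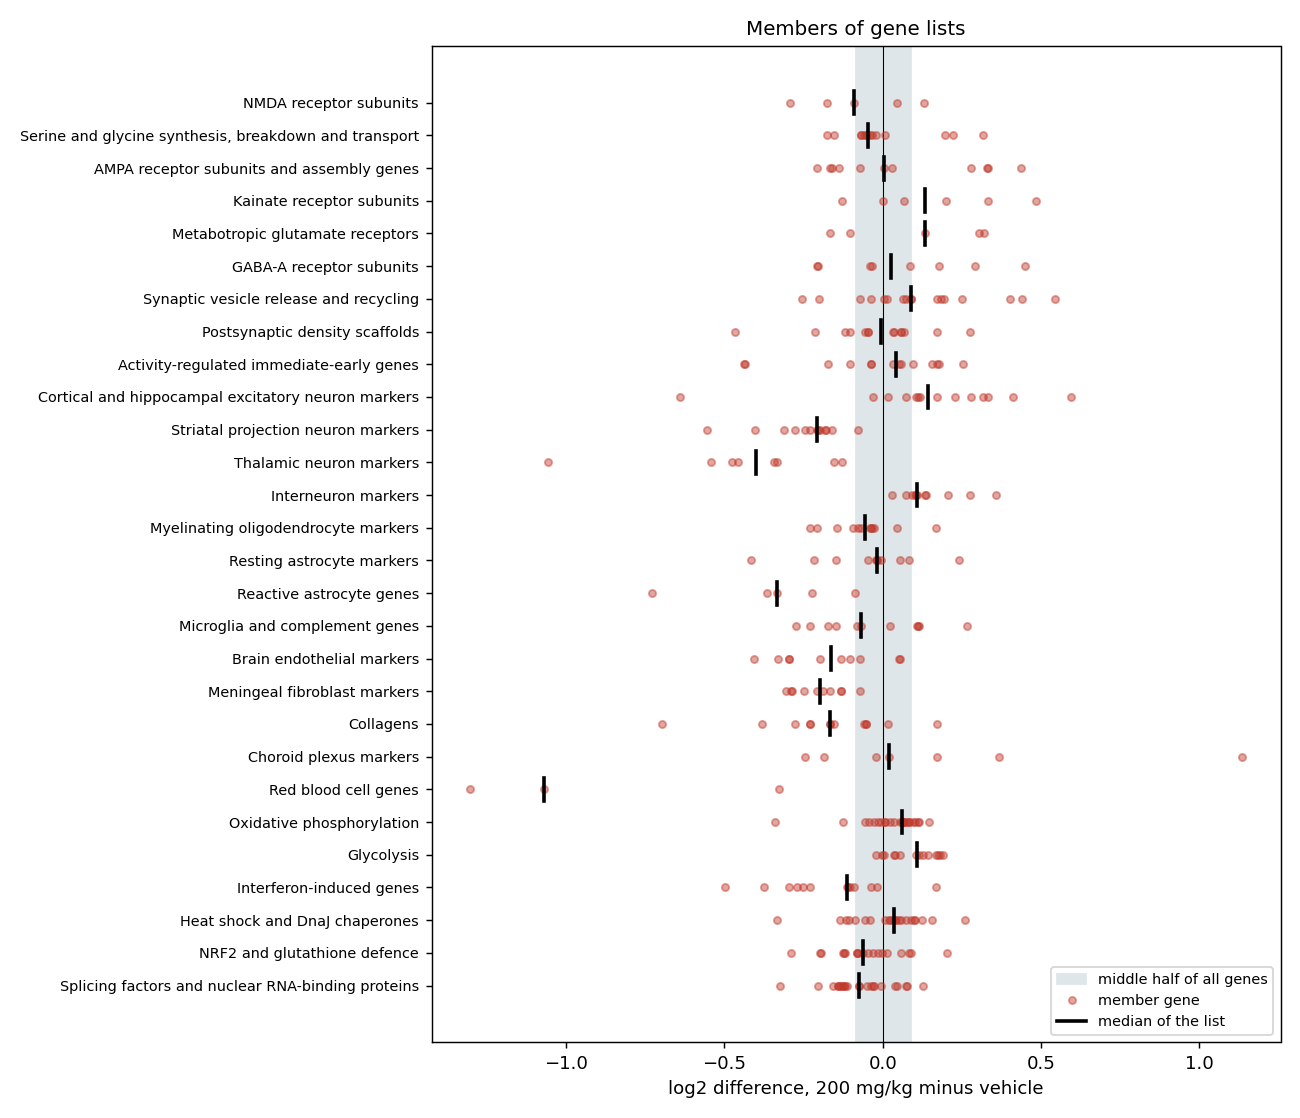
Difference of 200 mg/kg minus vehicle in log2(intensity + 16) for the measured members of gene lists, with points for genes, a black bar for the median of a list and a grey band from the lower (-0.08) to the upper quartile (0.09) of all genes. Red blood cell genes (median -1.07), thalamic markers (-0.40) and reactive astrocyte genes (-0.33) lie furthest to the left, and no member of any list passed the test.

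Lists of metabolic and stress genes had medians within the quartiles of all genes, -0.08 and 0.09, except glycolysis. Of 14 glycolysis genes 12 read above vehicle (median 0.11, and 0.069 without 200 mg/kg replicate 3), with triose phosphate isomerase, Tpi1, at 0.19 ± 0.09 (limma adjusted p = 0.939). Of 25 oxidative phosphorylation genes 18 read above vehicle (median 0.06), while Ndufb8, a subunit of complex I, was at -0.34 ± 0.14 (limma adjusted p = 0.893). The proton pump subunit Atp6v1a was at 0.34 ± 0.14, though its other probe set gave -0.12. Heat shock and DnaJ chaperones had a median of 0.04 over 22 genes, with the mitochondrial chaperone Hspa9 at 0.26 ± 0.08 (limma adjusted p = 0.755) and the vesicle chaperone Dnajc5 at 0.12 ± 0.06. Of 19 genes of NRF2 and glutathione defence, 5 read above vehicle (median -0.06). Among them Cat, the hydrogen peroxide-degrading catalase, read 8.41, 8.39, 8.49 and 8.41 at 200 mg/kg, against 8.78, 8.76, 8.57 and 8.74 in vehicle, without overlap (-0.29 ± 0.09, limma adjusted p = 0.771). Amino acid stress genes of the ATF4 response had a median of -0.08 over 15 genes.

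Sgk1, a kinase gene induced by glucocorticoids, read 9.37, 10.27, 10.26 and 9.18 at 200 mg/kg, against 9.00, 9.04, 9.10 and 9.06 in vehicle. All 4 rats at 200 mg/kg were above all vehicle rats, 2 of them by more than 1 log2 unit, and the difference was 0.72 ± 0.28 (limma adjusted p = 0.893). Sgk1 also lay above all vehicle rats at 20 mg/kg (9.60 to 10.03), 50 mg/kg (9.35 to 9.44) and 500 mg/kg (9.55 to 10.38). At 5 mg/kg it read 8.80 to 10.53. The part of the shared vehicle arrays in these differences was not tested. The 13 measured glucocorticoid-responsive genes had a median of 0.04, with 8 above vehicle. Cyp51, an enzyme of cholesterol synthesis, was at -0.32 ± 0.10 (limma adjusted p = 0.755), and the 16 measured genes of that pathway had a median of -0.01.

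Interferon-induced and antigen presentation genes read lower in most members. Of 13 measured interferon-induced genes, 1 read above vehicle (median -0.11, from -0.25 without vehicle replicate 1 to -0.048 without vehicle replicate 3), with Isg15, a ubiquitin-like modifier, at -0.50 ± 0.26 and the transcription factor Irf9 at -0.27 ± 0.12 (limma adjusted p = 0.96 and 0.893). All 5 measured genes of MHC class I and antigen presentation read below vehicle (median -0.18, and -0.12 without 200 mg/kg replicate 3). Of 23 splicing factors and nuclear RNA-binding proteins, 5 read above vehicle (median -0.08), and Srrm2, a component of nuclear speckles, was at -0.33 ± 0.11 without overlap of the groups (limma adjusted p = 0.833). The axonal transport motor Kif1a read 7.57, 7.74, 7.54 and 7.26 at 200 mg/kg, against 8.40, 8.26, 7.78 and 7.98 in vehicle (-0.58 ± 0.18, limma adjusted p = 0.755), while its other probe set gave 0.11. A related motor, Kif5c, was at -0.31 ± 0.11 (limma adjusted p = 0.833), with other probe sets at -0.08 and 0.40. The ribosomal protein gene Rpl22 was at -0.19 ± 0.09 (limma adjusted p = 0.893), and 22 cytosolic ribosomal protein genes had a median of -0.02.

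Over all 59 lists, 0 had a called member. The median of a list lay within 0.1 of no difference in 40 lists, at 0.1 or more in 6 and at -0.1 or less in 13. Only 6 genes had a difference of at least 1 log2 unit in size, namely Hbb, Alas2, Pmch, Slc17a6, Ttr and S100a9. The last of these, a calcium-binding protein of neutrophils named here after its values were seen, read 7.65, 8.36, 6.39 and 5.82 at 200 mg/kg, against 5.99, 5.30, 6.60 and 6.25 in vehicle (1.02 ± 0.60, limma adjusted p = 0.984).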

How the data were processed

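The authors deposited intensity on a linear scale, with 1 value for each probe set, made with GCOS (Affymetrix's array software; version not given in the sources used here), per the submitters' processing notes. The medians of the 24 arrays spanned 0.73 log2 units, so all arrays were quantile normalized and taken as log2(intensity + 16). Of 31099 probe sets, 57 controls and the 40% with the lowest mean were left out, which kept 18625. The platform annotation gave 1 symbol to 20832 probe sets, several to 436 and none to 9831. Symbols were updated through the Entrez ID for 20764, the accession for 2 and kept for 66, with the RefSeq gene table of GRCr8, used for names only. The brightest probe set by mean stands for each of 10205 genes, and p was adjusted over all probe sets.

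Groups came from the labels. All arrays entered 1 limma 3.58.1 model (R 4.3.3) of 6 group means whose prior variance followed intensity. Benjamini-Hochberg adjustment was applied within each comparison, and a probe set passed with adjusted p under 0.05. The limma step was tested on simulated data. Lists were described by counts and medians, with no test; a list's level on an array is the mean of its members relative to their vehicle mean. Genes named were the 10 with the smallest p, up to 4 of each list with the smallest p, and a set of 18 genes of D-serine handling, receptors, activity, glia, choroid plexus and blood. Members and lists were chosen with earlier results of these data known. Precision is limited by the number of arrays. Alternatives were other filters, normalizations, pseudocounts, moderation and weights, only the 8 arrays, an array of the 500 mg/kg group left out, RNA ratios as covariates, and each array left out in turn. Scan and labelling batches were not used here.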

Additional observations from a re-analysis of the deposited data

Results flagged for a closer look

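In 9 of the 128 groups of 4 arrays looked at, over genes named and control ratios, the highest or lowest rat stood far from the other 3. Distance was judged by the range of the group, and chance gives about 1 in 20 groups. In the 200 mg/kg group replicate 4 stood apart in 3 genes. Its Hbb level was 12.34, with the other rats at 9.61 to 9.94, its Alas2 level was 7.23, with the others at 4.98 to 5.32, and its Egr1 level was 10.58, with the others at 11.08 to 11.16. Replicate 3 of that group stood apart in 4 genes. It was low in Aif1 at 6.61 (others 6.86 to 6.87) and in Rpl22 at 10.33 (others 10.49 to 10.51), and high in Col3a1 at 7.34 (others 6.88 to 6.92) and in Atp6v1a at 11.48 (others 11.07 to 11.13). Among vehicle rats, replicate 2 was high in Slc17a6 at 10.33 (others 7.30 to 7.44) and replicate 3 was high in Tpi1 at 11.56 (others 11.39 to 11.40).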

How the results depend on the processing

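Of the 22 settings other than the reported one, 200 mg/kg against vehicle kept 0 called probe sets in all but 1. Leaving out each array of both groups in turn gave 0 to 7 called probe sets and 0 to 2 called genes, with the highest counts without 200 mg/kg replicate 4, where Hbb and Alas2 passed. Against 50 mg/kg, where 0 probe sets were called, limma called 1 with the lowest 60% left out, 182 with array weights (54 higher and 128 lower), 2 without 500 mg/kg replicate 4, 2 with Gapdh ratio as covariate, and 0 to 10 when arrays were left out in turn. Of 1332 pairs of a named gene and a setting, 20 had the other sign, and 0 of the 218 for the 10 genes with the smallest p. With the Gapdh ratio as a covariate, Slc7a10 was at 0.060, Grin2b at -0.10, Grin2c at 0.021, Egr1 at -0.18, Camk2a at -0.47 and Mbp at 0.018. That fit kept 500 mg/kg replicate 4, whose Gapdh ratio was 0.97, against 0.65 to 0.72 in the rest of its group. That array read 7.78 for Camk2a, 5.50 for Grin2b, 10.17 for Grin2c and 8.74 for Egr1. The rest of its group read 11.87 to 11.90, 7.22 to 7.43, 8.27 to 8.51 and 11.06 to 11.17. For Slc7a10 it read 7.61 (others 7.16 to 7.57) and for Mbp 13.23 (others 13.06 to 13.09). The part of that array in these differences was not tested. With the beta-actin ratio as a covariate Camk2a was at -0.039, and with median centring Fos was at 0.020. Leaving out arrays in turn moved Slc1a4 from -0.22 to 0.011, Slc7a10 from -0.11 to 0.0083, Grin1 from -0.17 to 0.024, Fos from -0.32 to 0.15, Egr1 from -0.071 to 0.24 and Mbp from -0.089 to 0.026. List medians moved by over 1 SD in 49 of 1297 pairs, and the T and B lymphocyte list had no gene left with the lowest 60% left out. The cause of these moves was not tested. No paired analysis was possible because the labels name a different animal for every array and give no shared replicate numbers.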
